A study of Mus musculus with 6 samples.

Results

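The 10 genes described here encode the carriers that move bile acids, organic anions, phospholipid and sterols across the hepatocyte membrane. They were taken by name from the 55487 genes of a liver count table: Slc10a1, Slco1a1, Slco1a4 and Slco1b2 for uptake from sinusoidal blood, Abcc3 for export back to it, and Abcb11, Abcb4, Abcc2, Abcg5 and Abcg8 for export into the bile canaliculus. Liver RNA was sequenced from 6 male wild-type C57BL/6J mice on a normal chow diet, 3 injected subcutaneously with GalNAc-siNC and 3 with GalNAc-siRnf10, and the livers were collected at an age of 17 weeks. GalNAc is a sugar ligand that binds the asialoglycoprotein receptor of hepatocytes, so each conjugate carries its siRNA to these cells. GalNAc-siNC carries a control siRNA, and GalNAc-siRnf10 an siRNA against Rnf10, which encodes a RING-type E3 ubiquitin ligase. The dose and the days of injection of these mice are not given in the sources used here, and the labels separate no batches among the 6 libraries.

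Hepatocytes take bile acids from portal blood through carriers of the sinusoidal membrane and secrete them across the canalicular membrane with ATP-driven pumps of the ABC family. Bile acids in the canaliculus draw phospholipid and cholesterol from the membrane, each delivered by a carrier of its own. Pumps of the sinusoidal membrane return conjugated anions to blood when they accumulate in the cell.

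Total counts were 33058645, 28430868 and 29893592 in the GalNAc-siNC mice and 26854377, 31621131 and 28117077 in the GalNAc-siRnf10 mice. At this depth 3 counts, the floor used here, were at most 1.12e-05% of a library, a limit that covers counting error only. The 10 transporters took 0.388%, 0.338% and 0.342% of the counts with GalNAc-siNC and 0.401%, 0.394% and 0.407% with GalNAc-siRnf10. GalNAc-siNC mouse 1 stood apart from the other mice of its group, with a chi-square per gene of 30.6 and 29.8 against them, where the remaining pair gave 10.4 and the pairs of GalNAc-siRnf10 mice 4.71 to 5.40. This mouse had the highest value among the GalNAc-siNC mice for 7 of the 10 transporters, so values without it are given below. Rnf10 itself fell from 4148 ± 347 to 1784 ± 41.8 normalized counts (SD, n = 3 mice in each group), a log2 fold change of -1.22 with an adjusted p of 3.29e-09 in edgeR's quasi-likelihood test, adjusted by Benjamini-Hochberg.

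All 10 transporters passed the low-count filter, and 6 of them were higher in GalNAc-siRnf10 mice at an adjusted p under 0.05: Slco1a4, Abcc3, Abcg5, Abcc2, Slco1a1 and Slco1b2. In the other direction 0 passed, also at an unadjusted p under 0.05, in DESeq2 and in limma voom, and Slc10a1, Abcb11, Abcb4 and Abcg8 did not pass edgeR's threshold. Over all 14046 tested genes, 6.71% were higher and 7.28% lower (14.0% in either direction) by the same edgeR test, adjusted over all of them. For each of the 10 transporters, every GalNAc-siRnf10 mouse had a higher normalized count than every GalNAc-siNC mouse, a pattern that 16.5% of all tested genes showed. The 10 were chosen with earlier results of these data known. The median log2 fold change was 0.21 over the 10 transporters and 0.0022 over all tested genes. Changes of this kind in whole liver cannot tell more hepatocytes from more RNA per hepatocyte. By fold change the 10 fell into a pair with a large difference, Slco1a4 and Abcc3, and 8 with a log2 fold change of at most 0.36.

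**Figure D1:**
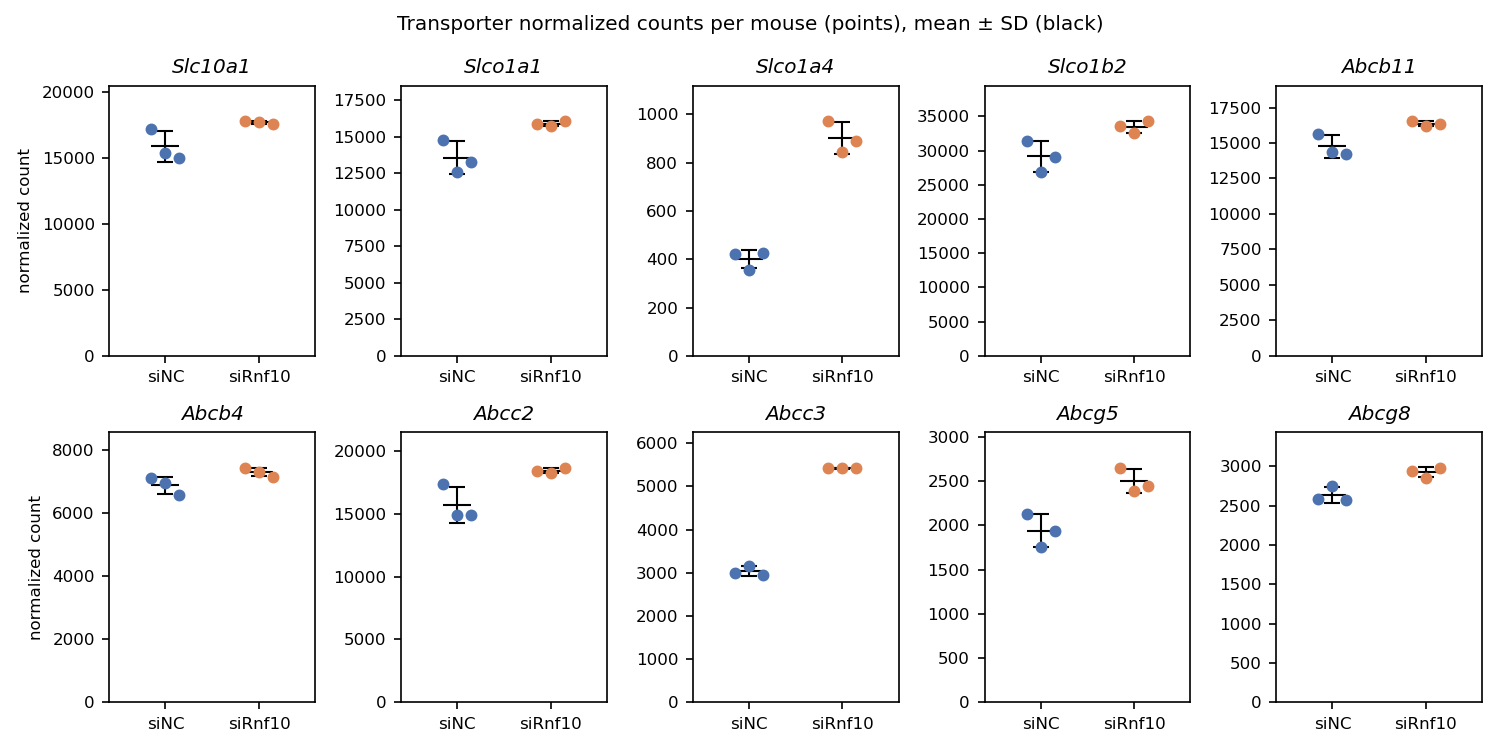
Normalized count (vertical axis, from 0) of each of the 10 transporters in the 3 GalNAc-siNC and 3 GalNAc-siRnf10 mice (points), with the mean and SD of each group in black. The groups do not overlap for any of the 10 genes, and the gap is widest relative to the level for Slco1a4 (402 against 902) and Abcc3 (3039 against 5421).

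Slco1a4 encodes Oatp1a4, a sodium-independent sinusoidal carrier of organic anions, bile acids and drugs. Its gene (ENSMUSG00000030237) lies on the minus strand of GRCm38 at chr6:141805440-141856199. Normalized counts were 423, 358 and 425 in the GalNAc-siNC mice and 972, 843 and 889 in the GalNAc-siRnf10 mice. All 3 GalNAc-siRnf10 mice lay far above the GalNAc-siNC mice, with no overlap. The group means of 402 ± 38.2 and 902 ± 65.3 (SD, n = 3) gave a 2.24-fold difference and a log2 fold change of 1.16 (standard error 0.0986), with an adjusted p of 2.72e-07 in edgeR's quasi-likelihood test, adjusted by Benjamini-Hochberg. Among the 14046 tested genes it ranked 142 by increase. Over the 6 fits with 1 mouse left out, its log2 fold change was between 1.09 and 1.21 and every fit kept the call.

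Slco1a4 sits in the Slco1 cluster of chromosome 6, in the order Slco1c1, Slco1b2, Slco1a4, Slco1a1, Slco1a6 and Slco1a5. Of these neighbours, Slco1c1 had 2 to 9 raw counts per mouse, Slco1a6 had 0 to 4, and Slco1a5 had 0 in every mouse. The transcripts of Slco1a4 shared 1.10% of their 100-base windows with other genes, mostly Slco1a5 and Slco1a1, and those of Slco1a1 shared 0.867%. Reads from these windows are uncertain between the genes. Slco1a1 had many more counts than Slco1a4, and the part of such reads in the Slco1a4 value was not tested.

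Slco1a1 encodes Oatp1a1, a related sinusoidal carrier of organic anions and steroid conjugates, and lies at chr6:141907282-141946962 on the minus strand (ENSMUSG00000041698). Slco1a1 had normalized counts of 14794, 12607 and 13297 with GalNAc-siNC and 15888, 15698 and 16060 with GalNAc-siRnf10. The groups did not overlap, and GalNAc-siNC mouse 1 came nearest to the other group. The means were 13566 ± 1118 and 15882 ± 181 (SD, n = 3), 17.1% apart, and the log2 fold change was 0.23 (standard error 0.0607), with an adjusted p of 0.018 in edgeR's quasi-likelihood test, adjusted by Benjamini-Hochberg. The call was lost in 5 of 6 fits with a mouse left out. With any 1 mouse other than GalNAc-siNC mouse 1 left out, the edgeR adjusted p was between 0.053 and 0.113.

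Slco1b2 encodes Oatp1b2, the rodent counterpart of the human hepatic uptake carriers of bilirubin, bile acids and statins. It lies on the plus strand at chr6:141629518-141686646 (ENSMUSG00000030236). Normalized counts of Slco1b2 were 31432, 26917 and 29073 in the GalNAc-siNC mice and 33604, 32497 and 34292 in the GalNAc-siRnf10 mice, so that the groups were separated by less than the spread within the GalNAc-siNC group. The means were 29141 ± 2258 and 33464 ± 905 (SD, n = 3), with a log2 fold change of 0.20 (standard error 0.0587) and an adjusted p of 0.0311 in edgeR's quasi-likelihood test, adjusted by Benjamini-Hochberg. The call was lost in DESeq2 (adjusted p = 0.0602) and in edgeR with any 1 mouse other than GalNAc-siNC mouse 1 left out (adjusted p between 0.0814 and 0.179).

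Slc10a1 encodes NTCP, the sodium-dependent carrier that takes up most conjugated bile acids from portal blood, and lies at chr12:80953183-80968705 on the minus strand (ENSMUSG00000021135). Slc10a1 had normalized counts of 17209, 15392 and 14994 with GalNAc-siNC and 17763, 17708 and 17542 with GalNAc-siRnf10. The highest GalNAc-siNC mouse lay just under the lowest GalNAc-siRnf10 mouse. The difference of the means, 15865 ± 1181 and 17671 ± 115 (SD, n = 3), was 11.4%, and the log2 fold change of 0.16 (standard error 0.058) did not pass the threshold (adjusted p = 0.0902, edgeR's quasi-likelihood test, adjusted by Benjamini-Hochberg). Without GalNAc-siNC mouse 1 the log2 fold change was 0.22 and edgeR's adjusted p 0.000143, and the log2 fold change was 0.06 once GC content and gene length were corrected for. The 4 uptake carriers thus counted 3 higher and 1 that was not called.

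Abcc3, the only member that exports to blood, encodes MRP3, a pump of the sinusoidal membrane for glucuronides and bile acids. It lies at chr11:94343295-94392997 on the minus strand (ENSMUSG00000020865). Abcc3 stood at 2992, 3167 and 2956 normalized counts in the GalNAc-siNC mice and 5414, 5417 and 5431 in the GalNAc-siRnf10 mice. The 3 GalNAc-siRnf10 mice were almost alike, and all stood far above the GalNAc-siNC mice. The means were 3039 ± 113 and 5421 ± 9.08 (SD, n = 3), a 1.78-fold difference, with a log2 fold change of 0.84 (standard error 0.0602) and an adjusted p of 3.76e-08 in edgeR's quasi-likelihood test, adjusted by Benjamini-Hochberg. It ranked 55 by p and 332 by increase among the 14046 tested genes. Its log2 fold change was between 0.81 and 0.86 over the 6 fits with 1 mouse left out, which all kept the call.

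Abcc2 encodes MRP2, the canalicular pump for bilirubin glucuronides and glutathione conjugates, and lies at chr19:43782192-43840740 on the plus strand (ENSMUSG00000025194). The normalized counts were 17327, 14881 and 14847 with GalNAc-siNC and 18369, 18229 and 18642 with GalNAc-siRnf10. Again GalNAc-siNC mouse 1 was the nearest to the GalNAc-siRnf10 mice, and the groups did not overlap. The means were 15685 ± 1422 and 18413 ± 210.2 (SD, n = 3), with a log2 fold change of 0.23 (standard error 0.062) and an adjusted p of 0.0185 in edgeR's quasi-likelihood test, adjusted by Benjamini-Hochberg. With any 1 mouse other than GalNAc-siNC mouse 1 left out, edgeR's adjusted p was between 0.0607 and 0.115.

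Abcg5 and Abcg8 encode the subunits of 1 canalicular pump, which exports cholesterol and plant sterols into bile. Abcg5 (ENSMUSG00000040505) lies at chr17:84658234-84683011 on the minus strand and Abcg8 (ENSMUSG00000024254) at chr17:84676302-84700333 on the plus strand. Their exons overlap by 82 bases on opposite strands, 3.02% of Abcg5 and 2.19% of Abcg8, and the strand setting of the counting is not given in the sources used here. Normalized counts of Abcg5 were 2127, 1760 and 1941 with GalNAc-siNC and 2653, 2394 and 2450 with GalNAc-siRnf10, and those of Abcg8 2590, 2756 and 2568 against 2940, 2858 and 2983. Neither gene overlapped between groups. Abcg5 rose from 1942 ± 184 to 2499 ± 136 (SD, n = 3), with a log2 fold change of 0.36 (standard error 0.0774) and an adjusted p of 0.00398 in edgeR's quasi-likelihood test, adjusted by Benjamini-Hochberg. Without GalNAc-siRnf10 mouse 1, the highest of its group, edgeR's adjusted p was 0.0543. Abcg8 had means of 2638 ± 103 and 2927 ± 63.5 (SD, n = 3), with a log2 fold change of 0.15 (standard error 0.0639) that did not pass (adjusted p = 0.138, edgeR), though it did at 0.21 once GC content and length were corrected for (edgeR adjusted p = 0.00621). The difference between both changes was not tested.

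Abcb11 encodes BSEP, the canalicular pump that exports bile acids, and lies at chr2:69238282-69342616 on the minus strand (ENSMUSG00000027048). For Abcb11 the normalized counts were 15662, 14383 and 14233 with GalNAc-siNC and 16536, 16199 and 16361 with GalNAc-siRnf10. The groups did not overlap, but the gap between the nearest mice was smaller than the spread among the GalNAc-siNC mice. The means of 14759 ± 785 and 16365 ± 169 (SD, n = 3) gave a log2 fold change of 0.15 (standard error 0.0548) and an adjusted p of 0.0835 in edgeR's quasi-likelihood test, adjusted by Benjamini-Hochberg. Without GalNAc-siNC mouse 1 edgeR's adjusted p was 0.00068, at a log2 fold change of 0.19, and with GC content and length corrected for it was 0.00716, at 0.16. The non-coding gene Gm13613 overlaps 136 exonic bases of Abcb11 on the other strand and had 2 to 8 raw counts per mouse.

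Abcb4 encodes MDR2, the canalicular floppase that supplies phosphatidylcholine to bile, and lies at chr5:8893717-8959231 on the plus strand (ENSMUSG00000042476). Abcb4 had normalized counts of 7107, 6958 and 6565 in the GalNAc-siNC mice and 7439, 7307 and 7158 in the GalNAc-siRnf10 mice. By fold change this was the smallest difference among the 10, and the groups nearly touched. The means were 6876 ± 280 and 7301 ± 141 (SD, n = 3), and the log2 fold change of 0.09 (standard error 0.057) did not pass edgeR's threshold (adjusted p = 0.362). It was 0.05 without GalNAc-siNC mouse 3, and 0.13 once GC content and length were corrected for, where Abcb4 was called higher (edgeR adjusted p = 0.0408). That call was lost when the replicate number was added as a block to the correction (edgeR adjusted p = 0.0633). Of the 5 canalicular members, 2 were higher and 3 were not called.

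Each of the 10 differences gave p = 0.1 in an exact two-sided permutation test, the smallest p that 3 mice against 3 allow. Without GalNAc-siNC mouse 1, 8 of the 10 transporters were called higher by edgeR, and the median log2 fold change of the 10 was 0.27. The log2 fold change was then 0.293 for Slco1a1, 0.256 for Slco1b2, 0.307 for Abcc2 and 0.431 for Abcg5. It was 1.2 for Slco1a4 and 0.822 for Abcc3. For Abcb4 it was 0.109 and for Abcg8 0.135, and neither was called. In that fit 1395 of all 14343 tested genes were higher, against 943 of 14046 with all mice. Without GalNAc-siRnf10 mouse 1, 2 were called, Slco1a4 and Abcc3, and without any 1 of the other mice 3 were called, these and Abcg5. Of all tested genes, 520 were higher without GalNAc-siRnf10 mouse 1, and 542 to 995 without 1 of those other mice.

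**Figure D2:**
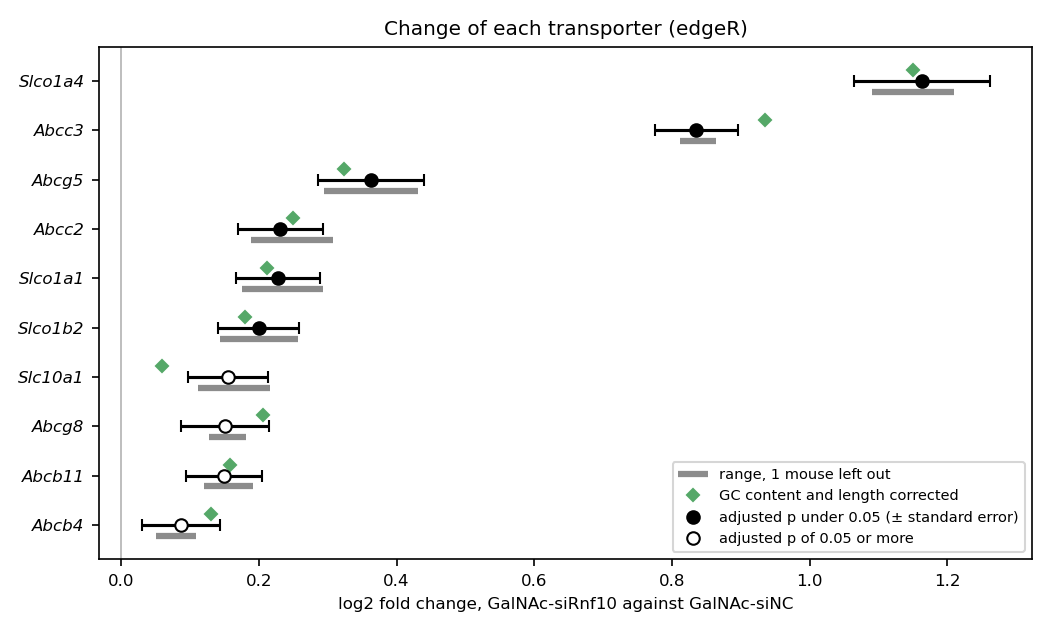
Log2 fold change of each transporter (horizontal axis), GalNAc-siRnf10 against GalNAc-siNC, with its standard error (black; filled circles passed an adjusted p under 0.05, open circles did not), the range over the 6 fits with 1 mouse left out (grey bars) and the value corrected for GC content and gene length (green diamonds). Slco1a4 (1.16) and Abcc3 (0.84) lie apart from the 8 others, and all values are above 0.

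Levels were compared between genes as TMM-normalized CPM, a count relative to the size of the library, per kilobase of the deposited gene length. In GalNAc-siNC mice Slc10a1 had the highest level, 243 ± 18.1 (SD, n = 3), which ranked 191 among the 14046 tested genes. Slco1b2 followed at 199 ± 15.4, then Abcb11 at 96.7 ± 5.14, Slco1a1 at 86.7 ± 7.14 and Abcc2 at 62.0 ± 5.62. The 3 canalicular carriers of lipid followed, with Abcb4 at 24.7 ± 1.01, Abcg5 at 24.1 ± 2.28 and Abcg8 at 23.7 ± 0.924, but with transcript length the level of Abcb4 was 56.8. Abcc3 was at 18.0 ± 0.668, and Slco1a4 was the lowest at 2.11 ± 0.201, which ranked 7585. The values of neighbours in this order overlapped between mice for Abcb11 and Slco1a1, for Abcb4 and Abcg5, and for Abcg5 and Abcg8. The largest differences between groups by fold change thus lay in the pair of genes with the lowest levels.

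In GalNAc-siRnf10 mice the first 5 genes kept this order, from Slc10a1 at 271 ± 1.76 to Abcc2 at 72.7 ± 0.831 (SD, n = 3, on the same scale). Abcc3 moved from place 9 to place 6, with a level of 32.1 ± 0.0537 that overlapped Abcg5 at 31.1 ± 1.69. Abcb4 moved from place 6 to place 9, at 26.2 ± 0.505, and overlapped Abcg8 at 26.3 ± 0.571. Slco1a4, at 4.74 ± 0.343, was still the lowest of the 10 but its rank among all tested genes went to 5007. With the length of the longest annotated transcript in place of the deposited length, the level of Slco1b2 was 341.1 and that of Slc10a1 340.6 in these mice, which turned their order. Slco1a1 then also stood above Abcb11, at 117 against 99.0 in GalNAc-siNC mice and 137 against 109.8 in GalNAc-siRnf10 mice. The level of Abcb4 was then 56.8 and 60.3, which placed it above Abcc3 and both Abcg genes in both groups, so the order of these neighbours depends on the length used.

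**Figure D3:**
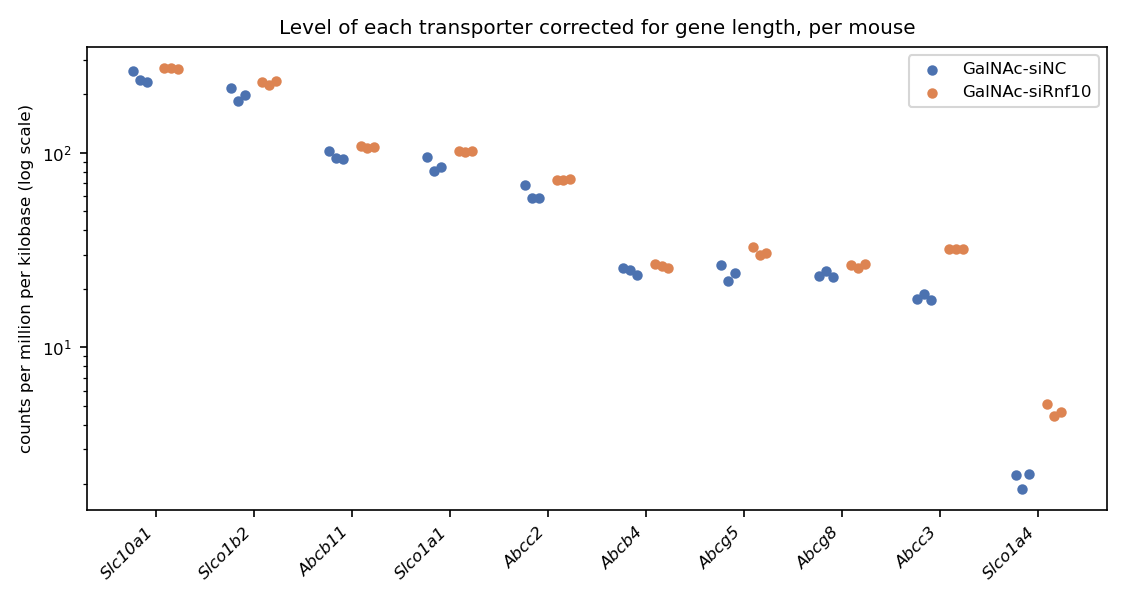
Normalized CPM per kilobase of gene length (vertical axis, log scale) of each transporter in the 3 GalNAc-siNC and 3 GalNAc-siRnf10 mice (points), in the order of the GalNAc-siNC means. Levels run from 243 for Slc10a1 to 2.11 for Slco1a4 in the GalNAc-siNC mice, and Abcc3 passes Abcb4 and Abcg8 in the GalNAc-siRnf10 mice.

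Summed by role on the same scale, the 4 uptake carriers were at 531 ± 38.9 and 606 ± 6.60 (SD, n = 3), and the 5 canalicular exporters at 231 ± 13.1 and 264 ± 3.60. Their shares of the sum over all 10 genes hardly moved. Uptake made up 67.4% to 68.6% in GalNAc-siNC mice and 67.1% to 67.4% in GalNAc-siRnf10 mice, and canalicular export 29.3% to 30.1% and 29.1% to 29.4%. The share of Abcc3, the sinusoidal exporter, was 2.11% to 2.51% in GalNAc-siNC mice and 3.53% to 3.60% in GalNAc-siRnf10 mice, with no overlap.

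Ratios between a pair of genes in 1 mouse do not depend on the size of its library, and were described without a test. The ratio of the level of Abcc3 to that of Abcc2, the MRP pumps of the opposite membranes, was 0.259, 0.319 and 0.298 with GalNAc-siNC and 0.441, 0.445 and 0.436 with GalNAc-siRnf10. The ratio of Slco1a4 to Slco1a1 was 0.0235, 0.0234 and 0.0263 against 0.0503, 0.0442 and 0.0456. Both ratios were separated between the groups by more than the spread within either.

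The remaining ratios differed less, though neither overlapped between the groups. The level of Abcb4 relative to Abcb11 was 0.249, 0.265 and 0.253 in GalNAc-siNC mice and 0.247, 0.247 and 0.240 in GalNAc-siRnf10 mice. With transcript length its means were 0.5744 and 0.5496, over 2 times as high in both groups. That of Abcg5 relative to Abcg8 was 1.135, 0.883 and 1.045 in GalNAc-siNC mice and 1.247, 1.158 and 1.136 in GalNAc-siRnf10 mice, so that the highest of the first group lay barely under the lowest of the second.

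**Figure D4:**
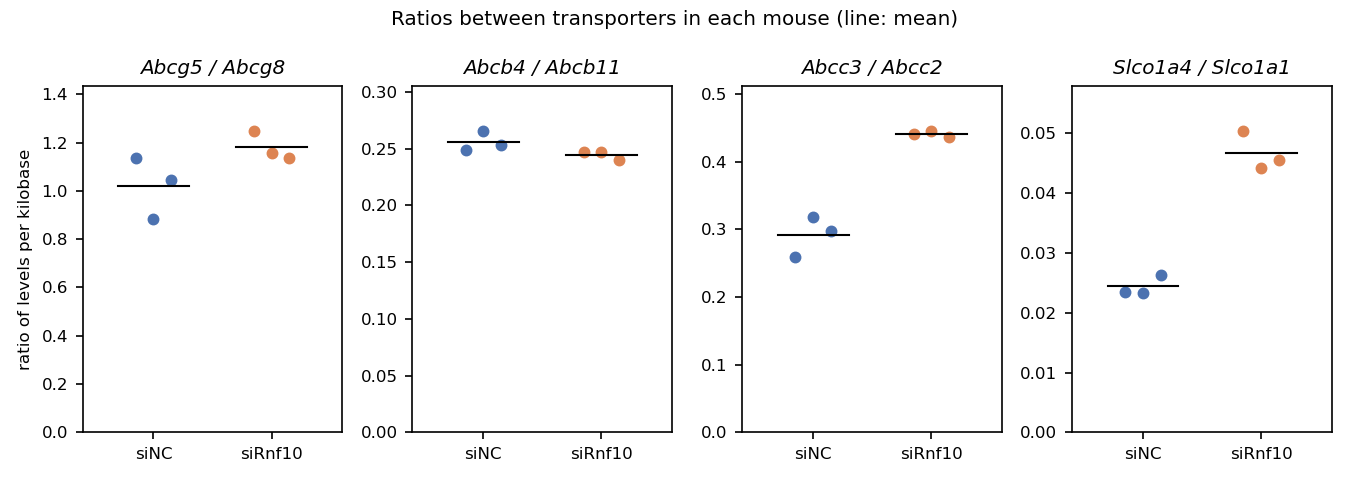
Ratio of the levels per kilobase of a pair of transporters (vertical axis, from 0) in each of the 3 GalNAc-siNC and 3 GalNAc-siRnf10 mice (points), with the group mean as a line. The ratios Abcc3 to Abcc2 (mean 0.292 against 0.441) and Slco1a4 to Slco1a1 (0.0244 against 0.0467) separate widely, and Abcb4 to Abcb11 (0.256 against 0.245, or 0.5744 against 0.5496 with transcript in place of gene length) hardly.

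Promoter sequence was read for the members with a RefSeq window of 250 bases before to 50 after the start site (GRCm38.p6), which 9 of the 10 had. Abcc3 had no window and was not searched. Motifs were chosen after the sequences had been seen and searched on both strands. The letters AGGNCA followed after 1 base by TGACCT, an inverted repeat of the kind that the bile acid receptor FXR binds, occurred in 12 of 32851 windows (0.0365%), and among them were those of Abcb11 and Slco1b2. They are shown because the genes serve bile acid export and uptake, with the match in capitals. The first is on the minus strand at chr2:69342637-69342709, its match 63 bases upstream of the start, and the second on the plus strand at chr6:141629400-141629472, its match 88 bases upstream.
Abcb11: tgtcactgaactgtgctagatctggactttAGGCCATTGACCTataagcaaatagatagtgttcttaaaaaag
Slco1b2: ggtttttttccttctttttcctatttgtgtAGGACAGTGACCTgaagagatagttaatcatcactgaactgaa

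RefSeq gave Abcg5 1 start site and Abcg8 2, one of them inside Abcg5. The other Abcg8 start lies 110 bases from that of Abcg5 and points away from it. The stretch between this pair is shown from the plus strand, chr17:84683012-84683120 (RefSeq, GRCm38.p6), with the 2 matches to GATAA, read here on the other strand as TTATC, in capitals.
Abcg5 to Abcg8: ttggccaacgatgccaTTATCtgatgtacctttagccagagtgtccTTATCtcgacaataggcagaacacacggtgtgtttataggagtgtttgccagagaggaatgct
GATAA occurred in 25.4% of all windows and in those of 5 members, Abcb4, Abcc2, Abcg5, Abcg8 and Slc10a1. The letters TGACNNNGC, the core of the antioxidant response element, occurred in 12.4% of windows and in that of Abcc2. Direct repeats of AGGTCA with a spacer of 3 or of 4 bases, of the kind that PXR and CAR bind, occurred in 0.00609% and 0.0152% of windows. They occurred in no window of a searched member, which leaves out Abcc3. A match is a description of the letters in these windows and not of binding.

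The genes whose profile over the 6 mice was most like that of Abcc3, by the distance between centred log2 normalized counts over 10944 genes, were Herpud1 (distance 0.0801), St3gal5 (0.0955) and Hsph1 (0.0998). Herpud1 acts in the degradation of proteins of the endoplasmic reticulum, St3gal5 makes the ganglioside GM3, and Hsph1 is a chaperone of the HSP110 family. For Slco1a4 they were Ugt1a9 (0.107), Cyp3a11 (0.172) and Mme (0.19). Cyp3a11 is a drug-metabolizing cytochrome P450 and Mme the peptidase neprilysin, while the counts of the glucuronosyltransferase Ugt1a9 are uncertain because Ugt1a genes share exons. Over so few mice these distances are set largely by the difference between the groups.

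Other carriers of organic anions, cations and bile components did not move in 1 direction. Of 34 listed genes 24 were tested, and 3 were higher (12.5%) and 4 lower (16.7%) in GalNAc-siRnf10 mice by edgeR's quasi-likelihood test, with a median log2 fold change of -0.08. Over all tested genes 6.71% were higher and 7.28% lower. Slc22a7, which encodes the sinusoidal anion carrier OAT2, fell from 4595 ± 387 to 2594 ± 115 (SD, n = 3), with a log2 fold change of -0.82 and an edgeR adjusted p of 3.63e-07. Normalized counts of Slc22a7 were 4211, 4985 and 4589 in the GalNAc-siNC mice and 2518, 2537 and 2726 in the GalNAc-siRnf10 mice. Thus the sinusoidal anion carriers Slc22a7 and Slco1a4 differed in opposite directions, both without overlap between groups.

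The other called genes of this list changed less. Slco2b1, another sinusoidal carrier of organic anions, was lower (log2 fold change -0.26, adjusted p = 0.00943, edgeR), as was the copper ATPase Atp7b (-0.29, adjusted p = 0.0226, edgeR, but 0.0638 with the replicate block and the GC content and length correction together). Tmem30a, the partner subunit of phospholipid flippases, named after its values were seen, was the fourth gene called lower (-0.22, adjusted p = 0.0395, edgeR). Its call was lost in DESeq2 (adjusted p = 0.0575), which called 3 lower. The canalicular pump for xenobiotics Abcg2 was higher (0.24, adjusted p = 0.0166, edgeR), as were the organic cation carriers Slc22a3 (0.44, adjusted p = 0.0232, edgeR) and Slc47a1 (0.23, adjusted p = 0.0313, edgeR). With each mouse left out in turn, Slc22a7 kept its call in 6 of 6 fits, Slco2b1 and Abcg2 in 3, Atp7b and Tmem30a in 2, and Slc22a3 and Slc47a1 in 1. Slc10a4, Slco1a5 and Slco4c1 had no count in any mouse and Slc22a8 at most 3. Slc51a and Slc51b, which encode the subunits of the sinusoidal exporter OST, had at most 10 raw counts per mouse and were not tested.

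Genes listed as other sterol carriers, among them the phospholipid carrier Pctp, were called in 1 direction only, opposite to that of Abcg5. The list was chosen with earlier results of these data known. Of 13 listed genes 12 were tested, 4 were lower (33.3%, against 7.28% of all tested genes) and 0 higher by edgeR's quasi-likelihood test, with a median log2 fold change of -0.08. At an unadjusted p under 0.05, in DESeq2 and in limma voom the number higher was also 0. Scarb1, the hepatic receptor for HDL cholesterol, fell from 5007 ± 384 to 3580 ± 136 (SD, n = 3; log2 fold change -0.48, edgeR adjusted p = 9.18e-05). Npc1, which exports cholesterol from lysosomes, fell by 0.29 on the log2 scale (adjusted p = 0.00835, edgeR), the lipid exporter Abca1 by 0.22 (adjusted p = 0.0332, edgeR) and the phosphatidylcholine carrier Pctp by 0.22 (adjusted p = 0.0439, edgeR). The call of Pctp was lost in DESeq2 (adjusted p = 0.0558) and in edgeR with the replicate block (0.0603), so DESeq2 called 3 lower. With each mouse left out in turn Scarb1 kept its call in 6 of 6 fits, Npc1 in 5 (edgeR adjusted p = 0.0899 without GalNAc-siRnf10 mouse 3), Abca1 in 2 and Pctp in 1.

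Genes that anchor carriers in the membrane or traffic them there gave 0 higher and 1 lower of 16 tested by edgeR's quasi-likelihood test, with a median log2 fold change of -0.05. That 1 was 6.25% of those tested, against 7.28% of all tested genes. At an unadjusted p under 0.05 edgeR gave 3 higher and 6 lower. Over all tested genes 12.9% were higher at that threshold, and the share lower was not counted. DESeq2 called 0 higher and 1 lower, Cldn1, and limma voom called 1 higher, Rdx, and 3 lower, Cldn1, Cldn3 and Slc9a3r1. The gene called lower was Cldn1, a tight junction protein that seals the canaliculus, which fell from 1838 ± 231 to 1349 ± 11.6 (SD, n = 3; log2 fold change -0.45, edgeR adjusted p = 0.00156).

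Of 24 listed nuclear receptors and transcription factors that bear on these carriers, 23 were tested, and 4 were higher (17.4%) and 6 lower (26.1%) by edgeR's quasi-likelihood test, with a median log2 fold change of -0.03. Over all tested genes these shares were 6.71% and 7.28%. Nr0b2, the corepressor SHP, was at 266, 306 and 291 normalized counts in the GalNAc-siNC mice and 509, 512 and 489 in the GalNAc-siRnf10 mice. It was higher in all 3 (log2 fold change 0.81, edgeR adjusted p = 4.19e-05). The xenobiotic receptor Nr1i3, known as CAR, rose from 619 ± 66.2 to 955 ± 56.5 (SD, n = 3; log2 fold change 0.63, edgeR adjusted p = 0.000174), and the aryl hydrocarbon receptor Ahr from 1121 ± 96.3 to 1568 ± 33.6 (log2 fold change 0.48, edgeR adjusted p = 0.000385).

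The pioneer factor Foxa1 fell from 811 ± 47.5 to 464 ± 34.8 (SD, n = 3; log2 fold change -0.81, edgeR adjusted p = 1.16e-05). Stat5a, a mediator of growth hormone signals, fell from 560 ± 71.5 to 341 ± 19.3 (log2 fold change -0.71, edgeR adjusted p = 0.000287), and the retinoic acid receptor Rara from 675 ± 106 to 438 ± 25.3 (log2 fold change -0.62, edgeR adjusted p = 0.00114). The remaining 4 called genes, named after their values were seen, were Nr1i2, the receptor PXR, at a log2 fold change of 0.37, Foxa2 at -0.53, and Stat5b and Esr1 at -0.35 each. Nr1h4, which encodes FXR, was at 4500 ± 87.6 and 4871 ± 53.2 (SD, n = 3) and was not called (log2 fold change 0.11, edgeR adjusted p = 0.219). Over the fits with 1 mouse left out, Esr1 kept its call in 4 of 6 and the other 9 called genes in 6 of 6, and without GalNAc-siRnf10 mouse 1 or mouse 3 the edgeR adjusted p of Esr1 was 0.0648 and 0.0693.

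**Figure D5:**
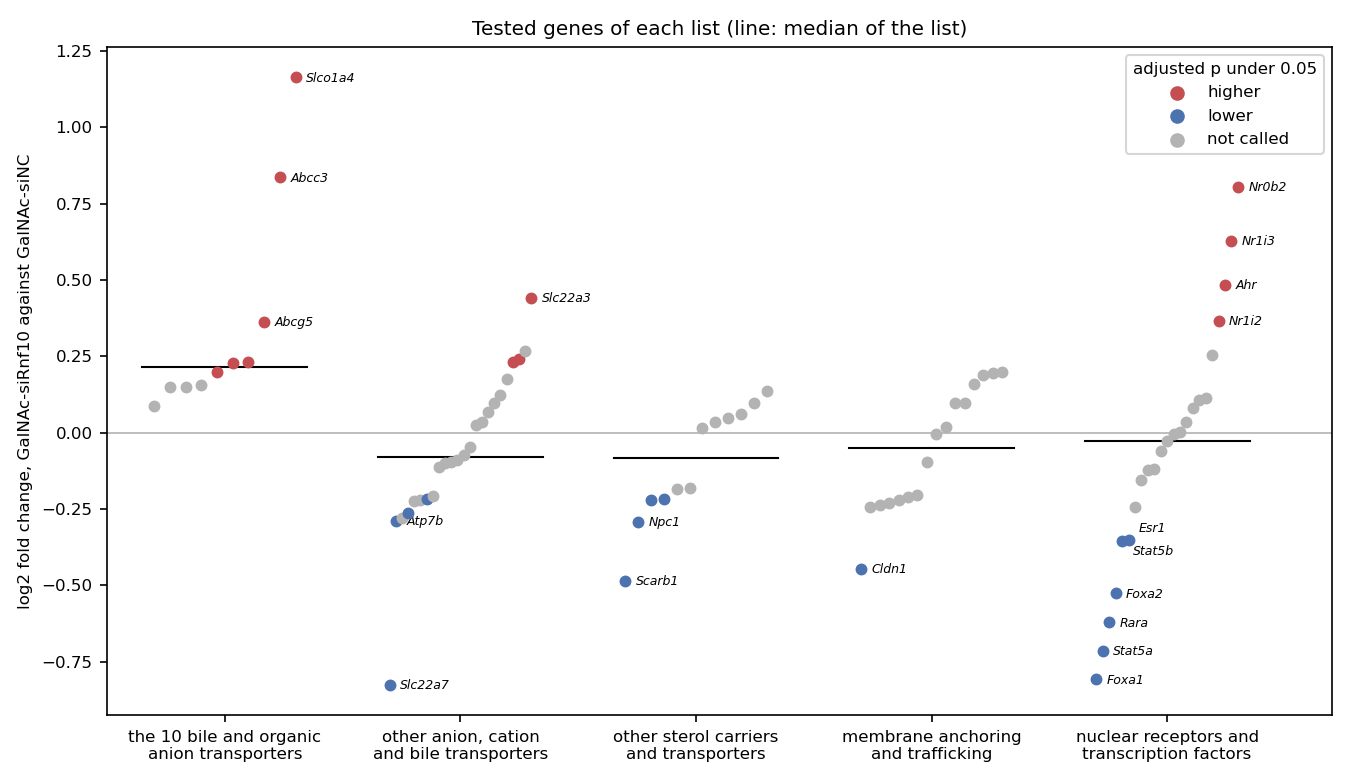
Log2 fold change, GalNAc-siRnf10 against GalNAc-siNC (vertical axis), of every tested gene of the 10 transporters and of 4 further lists, in rising order within each list, coloured by edgeR call at an adjusted p under 0.05, with the list median as a line and names at called genes beyond 0.28 in size. All 10 transporters lie above 0 with a median of 0.21, while the medians of the other lists lie between -0.08 and -0.03. All lists were chosen with earlier results of these data known.

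Of 10 hepatocyte markers, all tested, 7 were higher (Alb, Ttr, Cps1, Ass1, Cyp2e1, Tat and Pck1) and 0 lower by edgeR's quasi-likelihood test, at an unadjusted p under 0.05, in DESeq2 and in limma voom, with a median log2 fold change of 0.53. These 7 were 70% of the list, against 6.71% of all tested genes called higher by edgeR. Summed over the 10 markers, normalized counts came to 1916850, 1831490 and 1860730 in the GalNAc-siNC mice and 2811890, 2761650 and 2730530 in the GalNAc-siRnf10 mice. The most abundant per kilobase was Alb, which took 3.72% to 4.36% of the counts with GalNAc-siNC and 5.93% to 6.08% with GalNAc-siRnf10. Apoa1 and the asialoglycoprotein receptor genes Asgr1 and Asgr2 were not called, with log2 fold changes of 0.08, 0.11 and -0.12. The groups overlapped for Apoa1 and Asgr1, while Asgr2 had a lower value in every GalNAc-siRnf10 mouse than in any GalNAc-siNC mouse (means of 4727 and 5144). The least abundant value of any of them in any mouse was 4581 normalized counts, for Asgr2, so hepatocyte markers were plentiful in every library. Without GalNAc-siNC mouse 2 the call of Ttr was lost (edgeR adjusted p = 0.114). The part of these markers in the transporter result was not tested.

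Cholangiocytes, which line the bile ducts, share some carriers with hepatocytes. Of 10 cholangiocyte markers 6 were tested, with 0 higher and 1 lower by edgeR, and a median log2 fold change of -0.40. That 1 was 16.7% of those tested, against 7.28% of all tested genes. In the higher direction 0 also passed at an unadjusted p under 0.05, in DESeq2 and in limma voom. In the lower direction DESeq2 called 1, and 2 passed at an unadjusted p under 0.05 and in limma voom, Spp1 and Sox9. Sox9 was at 131 ± 22.3 and 89.7 ± 10.2 (SD, n = 3), with no overlap between groups and an edgeR adjusted p of 0.0555. Their summed normalized count was 2063, 2061 and 2095 with GalNAc-siNC and 1154, 1173 and 1140 with GalNAc-siRnf10. Most of it was Spp1, which fell from 1836 ± 45.7 to 982 ± 10.6 (SD, n = 3; log2 fold change -0.90, edgeR adjusted p = 8.59e-08). The defining markers Krt7, Krt19 and Epcam had at most 36 raw counts in any mouse and were not called, and Cftr had at most 10 with GalNAc-siNC and 0 with GalNAc-siRnf10.

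Of the 9 sinusoidal endothelial markers, 2 were higher by edgeR: Clec4g, the most abundant per kilobase (log2 fold change 0.52, adjusted p = 0.00426), and Lyve1 (0.55, adjusted p = 0.0414), and the summed normalized count was 3210, 3232 and 3119 against 3531, 3342 and 3352. Those 2 were 22.2% of the list, against 6.71% of all tested genes called higher. By edgeR 0 were lower, with 1 at an unadjusted p under 0.05, Stab2, which limma voom called lower. In the other direction 4 had an unadjusted edgeR p under 0.05, Clec4g, Lyve1, Fcgr2b and Oit3, and limma voom called 2 higher, Clec4g and Fcgr2b. Of all tested genes 12.9% were higher at that unadjusted threshold. The call of Lyve1 was lost in DESeq2 (adjusted p = 0.0555), in limma voom (0.0644) and in edgeR with the replicate block (0.0506), and DESeq2 called 1 marker higher, Clec4g. By normalized count Stab2 led the list, at 711 with GalNAc-siNC and 594 with GalNAc-siRnf10. Of the 9 stellate cell markers, 3 were higher by edgeR: Dcn, the most abundant per kilobase (0.36, adjusted p = 0.00201), Reln (0.35, adjusted p = 0.0158) and Colec11 (0.37, adjusted p = 0.0422, but 0.129 once GC content and length were corrected for), with sums of 4357, 4119 and 4284 against 4813, 4823 and 4901. The median log2 fold change of the stellate cell markers was 0.03. The 3 called were 33.3% of the list, against 6.71% of all tested genes called higher. Those not called were Lrat (-0.27), Des (-0.20), Pdgfrb (-0.25, lower in every GalNAc-siRnf10 mouse), Col1a1 (-0.26), Col3a1 (0.14) and Rgs5 (0.03). With 1 mouse left out, Clec4g and Dcn kept their calls in 6 of 6 edgeR fits, Reln in 4, Colec11 in 2 and Lyve1 in 1, and the highest adjusted p was 0.109 for Reln, 0.185 for Colec11 and 0.174 for Lyve1. Of the 9 Kupffer cell markers 0 were called by edgeR, DESeq2 or limma voom, and 1 had an unadjusted edgeR p under 0.05, Cd5l, at 1859 ± 138 and 1657 ± 82.3 (SD, n = 3). The sums of the Kupffer cell markers were 6067, 7633 and 7333 against 7285, 6955 and 7012, with Cd5l the most abundant per kilobase and Clec4f the one with most normalized counts (1930 and 2079). No endothelial, stellate or Kupffer cell marker was at 0 in every mouse, and the part of these cells in the transporter result was not tested.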

How the data were processed

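RNA-seq was performed on 6 livers, 1 library per mouse. The same numbers in both groups name different mice. Libraries were of stranded mRNA and read from both ends. The authors used HISAT2 against GRCm38, and the values they deposited are raw counts for each gene that were not normalized. The counting tool, the annotation release and the strand setting are not given in the sources used here. The deposited gene length in bases was used for levels per kilobase. Per the submitters' processing notes DESeq2 was also used upstream.

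The 10 transporters and the gene lists were chosen with earlier results of these data known. Symbols came from GENCODE M21 (346 of 55487 identifiers had none) and promoter windows from RefSeq. Tests on the counts used edgeR 4.0.16 under R 4.3.3 (filterByExpr, TMM, robust quasi-likelihood F-test, treatment as the only term), with Benjamini-Hochberg adjustment over the 14046 tested genes and calls at an adjusted p under 0.05. Normalized counts are scaled to the mean effective library of 29667449. The biological coefficient of variation was 9.28%. Alternatives were RLE and upper-quartile scaling, no filter or at least 10 counts per mouse, DESeq2 1.42.0, limma 3.58.1 (voom with sample weights), the replicate number as a block, a GC content and length correction (splines with 5 degrees of freedom), an adjusted p under 0.01, transcript length, and leaving out each mouse. The edgeR step was tested on simulated counts with a log2 change of 1 in 200 genes. It called 197 genes, of which 177 were among the 200. Smaller changes, such as those of most of the transporters, were not simulated.

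Named genes were the 10 transporters and Rnf10, up to 6 called genes with the lowest p per list, the called and most abundant genes of each marker list, and, for the 2 transporters with the lowest p, the 3 genes of nearest profile (mean of at least 50 normalized counts, log2 with a pseudocount of 0.5). Any other named gene, such as Nr1h4 or the neighbours of Slco1a4, was chosen once values had been seen. Figures were drawn with matplotlib 3.10.9 (Python 3.11.15, numpy 2.4.6, scipy 1.17.1, pandas 2.3.3).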

Additional observations from a re-analysis of the deposited data

How the results depend on the processing

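No transporter changed direction in any alternative fit. Of the alternative values of the 10 transporters and Rnf10, 139 kept direction and side of the threshold, 17 lost a call and 9 gained one. Leaving out each mouse gave 2 to 8 called transporters, 1053 to 2864 of all tested genes and 12 to 30 of the other listed genes, against 6, 1965 and 22 with all mice. The lowest counts came without GalNAc-siRnf10 mouse 1 (2 transporters, 1053 genes) and without GalNAc-siRnf10 mouse 3 (12 listed genes), and the highest without GalNAc-siNC mouse 1. These fits have fewer samples. An adjusted p under 0.01 left 3 transporters (Slco1a4, Abcc3 and Abcg5) and 1042 genes, by the stricter threshold itself. The GC content and length correction called 9 transporters, adding Abcb11 (adjusted p = 0.00716, edgeR), Abcg8 (0.00621) and Abcb4 (0.0408), limma voom called 8 and DESeq2 5. Over all tested genes these fits called 2442, 2328 and 1912, against 1965 in the main fit. The cause of these differences was not tested.

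Same-numbered mice did not deviate together (correlations of deviations of -0.000993, 0.0272 and -0.0337). These values show no pairing by number, but with so few mice they cannot exclude one. With the replicate number as a block, 1816 genes and 6 transporters were called, and with the GC content and length correction as well 2356 genes and 8 transporters. Abcb4 was no longer called in the latter fit (edgeR adjusted p = 0.0633). Of the 22 called genes in the other lists, 12 were called in every fit with 1 mouse left out, and none of the 22 reversed in an alternative fit. Depth did not limit the 10 transporters, which had at least 347 raw counts in every mouse. Levels per kilobase depend on the length used.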
